A study of Mus musculus with 10 samples.

Results

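*Col10a1*-high cells were examined within the articular-like *Grem1*-lineage cells of the mouse hind limb, one cell per well. A cell was kept if at least 350 genes had a UMI (a molecule counted once by its barcode). It was called articular-like if *Clu*, *Cilp* and *1500015O10Rik* together held at least 2.5% of its UMIs and more UMIs than *Cnmd*. It was called *Col10a1*-high if it also held at least 5 *Col10a1* UMIs. The members were therefore chosen on measured values of these 5 genes, which are described below without a test. The rule found 89 *Col10a1*-high cells among 337 articular-like cells, 684 kept *Grem1*-lineage cells and 930 wells in the whole series. The other 248 articular-like cells, with under 5 *Col10a1* UMIs, are called *Col10a1*-low.

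All mice were C57BL/6. *Grem1-TdT* mice carry a tamoxifen-inducible Cre from *Grem1* and a TdTomato reporter, and were given tamoxifen chow for 2 weeks from an age of 5 to 6 weeks. Articular cartilage and growth plate were excised, digested with collagenase, and single live (DAPI-) TdTomato+ cells were sorted into 96-well plates, with no exclusion of CD45+, Ter119+ or CD31+ cells stated for them. The inducible reporter marks cells that expressed *Grem1* during tamoxifen and their descendants, so a marked cell need not express *Grem1* when sorted. *LepR-TdT* mice of paired age, in which *Lepr*-lineage cells of whole bone were sorted as CD45-Ter119-CD31- TdTomato+, gave 2 further plates that were used only as a background for *Col10a1*. The tissues were kept apart through sorting, and the methods say that cells were placed into plates at random. The labels give neither the number of mice nor the tissue of any *Grem1* plate or well. The tissue of a cell is thus not known, nor whether the mix of tissues differed between plates.

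*Col10a1* encodes the alpha 1 chain of type X collagen, a short-chain network collagen best known from the hypertrophic chondrocytes that border mineralising cartilage in the growth plate and in the calcified zone under articular cartilage. *Clu* (clusterin, a secreted chaperone), *Cilp* (cartilage intermediate layer protein) and *1500015O10Rik* (the symbol used here for Ecrg4, a secreted peptide precursor) are abundant in articular chondrocytes, whereas *Cnmd* (chondromodulin, an inhibitor of vessel growth) is abundant in growth plate chondrocytes. The other classic hypertrophic genes include *Ihh*, *Mmp13*, *Runx2* and *Spp1*, which follow alphabetically after the last symbol of the table. They were not analysed here, nor was *Prg4* of the articular surface.

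The 8 *Grem1* plates (numbered 1, 2 and 4 to 9) held 133289 to 179071 UMIs each, with a median of 1472.5 UMIs per kept cell. The gene table used here ends alphabetically at *Gm5763*, so the UMI totals, the gene minimum, the percentages and the CPM given here cover symbols up to that one and are not shares of the whole transcriptome. Under the gene minimum 84 of the 768 *Grem1* wells were left out. The plates shared 96 well barcodes, and the 89 *Col10a1*-high cells sat on 45 of them. *Col10a1* lies at chr10:34389981-34397085 (GRCm38, + strand), where its exons overlap those of *Nt5dc1* on the other strand.

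*Col10a1*-high cells were present on every *Grem1* plate, but in unequal shares. They made up 26.4% of articular-like cells (exact 95% binomial interval 21.8 to 31.5%, counting error only). The share was 15.9% on plate 1 (7 of 44 cells), 6.82% on plate 2 (3 of 44) and 7.02% on plate 4 (4 of 57). It was 42.9% on plate 5 (15 of 35), 48.7% on plate 6 (19 of 39), 39.5% on plate 7 (17 of 43) and 40.0% on plate 8 (14 of 35), with 25.0% on plate 9 (10 of 40). Over the 8 plates the mean was 28.2% ± 16.8 (SD). Plates 2 and 4 were low, plates 5 to 8 were high, and the intervals of plates 2 and 4 did not reach those of plates 5 to 8. *Col10a1*-high cells were deeper on every plate, with a median of 1440 UMIs against 1117.5 and a ratio of medians from 1.20 to 1.43.

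**Figure D1:**
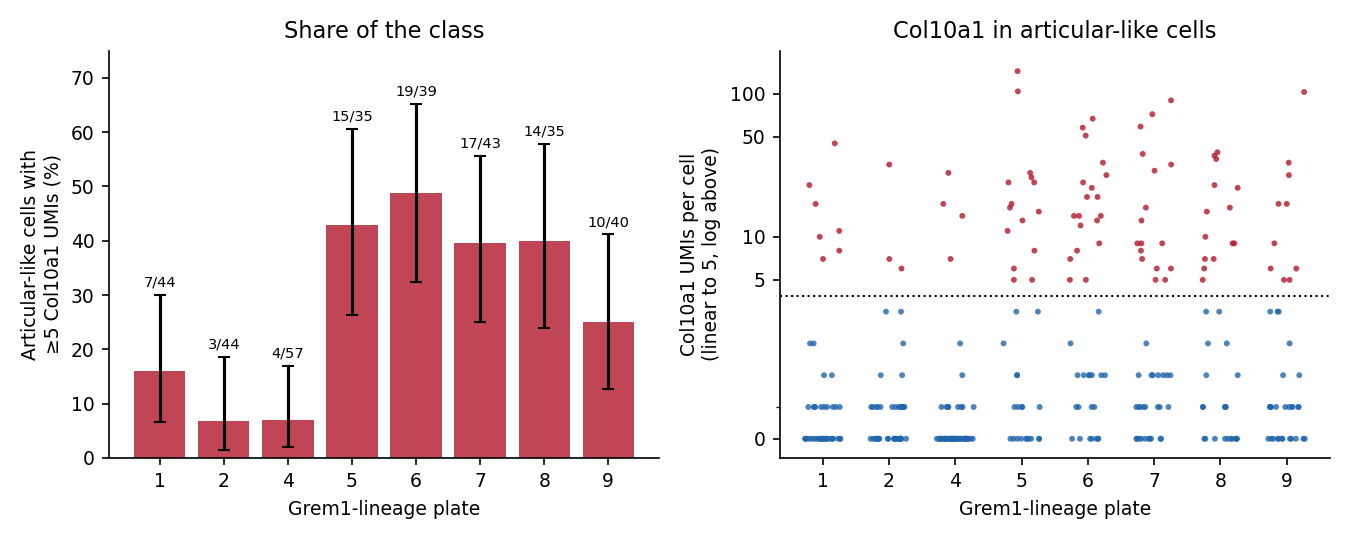
The left panel gives the percentage of articular-like cells with at least 5 *Col10a1* UMIs on each *Grem1*-lineage plate, with exact 95% binomial intervals and the cell counts above them. The right panel gives *Col10a1* UMIs of each of the 337 articular-like cells (linear to 5, log above, points spread sideways at random), with *Col10a1*-high cells in red above the dotted line. Plates 2 and 4 lie near 7%, and single cells reach 144 UMIs.

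*Col10a1* itself was spread over a wide range with no gap at the threshold. Of the 337 articular-like cells, 137 had no *Col10a1* UMI, 111 had 1 to 4, 34 had 5 to 9, 24 had 10 to 19, 22 had 20 to 49 and 9 had 50 or more. In *Col10a1*-high cells the gene took 1.55% of the UMIs in the table (1980 UMIs, median 14 and highest 144 per cell), against 0.0644% in *Col10a1*-low cells (186 UMIs). At least 1 *Col10a1* UMI was found in 44.8% of the *Col10a1*-low cells (median depth 1117.5 UMIs) and in 52.9% of *Cnmd*-rich cells (median 2316.5). *Cnmd*-rich cells are the 136 kept cells with at least 2.5% *Cnmd* and at least as many *Cnmd* UMIs as UMIs of the 3 articular genes. In the kept *Lepr*-lineage cells, which were sorted from whole bone, the share was 3.90% (3 of 77 cells, median 766 UMIs over the same genes). Only 2 of the 136 *Cnmd*-rich cells reached 5 UMIs (1.47%, exact 95% interval 0.179 to 5.21%). Of all 127 kept *Grem1*-lineage cells with at least 5 *Col10a1* UMIs, 89 were articular-like, 2 were *Cnmd*-rich and 36 were neither.

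The 3 articular genes of the rule were not equally abundant in the *Col10a1* classes. *Clu* held 1.21% of UMIs in *Col10a1*-high cells and 2.32% in *Col10a1*-low cells. *Cilp* held 1.59% and 1.27%, and *1500015O10Rik* held 2.84% and 1.56%. *Cnmd* was close, at 0.451% and 0.444%, against 3.27% in *Cnmd*-rich cells. Just inside the threshold, 16 cells with 5 or 6 *Col10a1* UMIs held 8968 CPM of *Fn1* and 897 CPM of *Fmod*, and just outside, 20 cells with 3 or 4 held 4151 and 1070 CPM (UMIs per 1000000 UMIs, here of all genes but the rule genes). Inside against outside, *Cst3* (61532 against 39839 CPM) and *Chad* (45140 against 36715) were also higher. Opposite to the fit below, *Acan* (3139 against 3338) and *Cd200* (1594 against 2097) were lower inside, and *Comp* was higher (5481 against 5178). Near the other edge of the rule, 7 *Col10a1*-high cells had 2.5 to 3% articular gene UMIs, and 2 cells with at least 5 *Col10a1* UMIs fell short at 2 to 2.5%.

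To ask which other genes differed with *Col10a1* among articular-like cells, UMIs were summed per plate and class, without the 5 genes of the rule. Both sums of a plate needed at least 5 cells, which left 6 plates (1, 5, 6, 7, 8 and 9) with 82 *Col10a1*-high and 154 *Col10a1*-low cells, while plates 2 and 4 (3 and 4 *Col10a1*-high cells) were not fitted. Levels from this fit are CPM of the 239 tested genes, scaled by TMM factors, and differ in scale from CPM of all genes. The plate was a block in edgeR's quasi-likelihood test, and p-values were adjusted by Benjamini-Hochberg over the tested genes. At an adjusted p under 0.05, 19 of the 239 genes differed (7.95%), of which 13 were higher in *Col10a1*-high cells (5.44%) and 6 lower (2.51%). Without the block 12 were called, 8 higher and 4 lower, and *Anxa8*, *Btg2*, *Atf7ip*, *Cdkn1a*, *Cox4i2*, *Apoe* and *Gm13889* were lost (adjusted p from 0.06 to 0.155). With DESeq2 13 were called, and with no filter on low counts 21 were called, 8 higher and 13 lower. These 21 include genes that the filter leaves out. *Adk*, *Cd200*, *Anxa8*, *Acan*, *Btg2*, *Chad*, *Atf7ip*, *Cdkn1a*, *Cox4i2* and *Apoe* were not among them. The median log2 fold change over the 239 genes was -0.01. In 15 of the 19 the direction was the same on all 6 plates, and 10 had levels that did not overlap between classes (4.18% of the genes tested).

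The most certain difference was *Fn1*, fibronectin, a matrix glycoprotein bound by integrins (chr1:71585520-71653200, - strand, with exons that overlap *Apol7d* on the other strand). In *Col10a1*-high cells *Fn1* stood at 12398, 20041, 15866, 15907, 13907 and 16360 CPM on plates 1, 5, 6, 7, 8 and 9, and in *Col10a1*-low cells of the same plates at 3232, 5759, 5057, 4427, 3990 and 5094 CPM. The lowest *Col10a1*-high sum lay above the highest *Col10a1*-low sum. *Fn1* rose 3.44-fold (log2 fold change 1.78 ± 0.14 SE, edgeR adjusted p = 3.04e-07).

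The opposite difference was largest for *Fmod*, fibromodulin, a small leucine-rich proteoglycan that binds fibrillar collagen (chr1:134037254-134048277, + strand). *Fmod* stood at 763, 343, 1094, 848, 1882 and 1402 CPM in *Col10a1*-high cells, and at 8409, 7474, 6553, 5546, 4971 and 5280 CPM in *Col10a1*-low cells, in the same order of plates. No sum of one class reached into the other. *Fmod* was 5.90-fold lower in *Col10a1*-high cells (log2 fold change -2.56 ± 0.29, edgeR adjusted p = 2.26e-05).

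The 13 listed cartilage proteoglycans and glycoproteins did not move together. Of the 9 that were tested, 2 were higher, 2 lower and 5 were not called, where 7.95% of all 239 tested genes were called. Their median log2 fold change was 0.22 beside -0.01 over all genes. *Acan*, the core protein of the large aggregating proteoglycan (chr7:79053483-79115099, + strand), lay between 6626 and 7248 CPM (median 6984) in *Col10a1*-high cells and between 2717 and 4681 CPM (median 3818) in *Col10a1*-low cells, without overlap. *Acan* rose 1.87-fold (log2 fold change 0.90 ± 0.16, edgeR adjusted p = 0.00215). *Chad*, chondroadherin, a leucine-rich repeat protein that links cells to collagen, ranged from 58328 to 112366 CPM (median 80147) against 39109 to 55307 CPM (median 44912), also without overlap (log2 fold change 0.80 ± 0.17, adjusted p = 0.00992). With no filter on low counts (8938 genes tested) the call was lost for *Acan* (adjusted p = 0.614) and *Chad* (0.455), and in cells under 0.5% *Cnmd*, an alternative chosen after seeing the data, it was lost for *Acan* (0.0507) and *Chad* (0.142).

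Lower beside *Fmod* was *Comp*, a pentameric matrix protein that bridges collagen fibrils. *Comp* ranged from 4455 to 9120 CPM (median 6415) in *Col10a1*-high cells and from 9210 to 13512 CPM (median 10319) in *Col10a1*-low cells, so the classes were separate by a narrow margin (log2 fold change -0.73 ± 0.18, edgeR adjusted p = 0.0185). The call was lost without plate 5 (adjusted p = 0.0685) or plate 6 (0.0777). *Ecm2*, another leucine-rich matrix protein, was low in both classes, at 117 to 428 CPM against 661 to 910 CPM, and fell by 1.58 ± 0.35 on the log2 scale (adjusted p = 0.0112). Its estimate rests on 18 UMIs in *Col10a1*-high cells and 91 in *Col10a1*-low cells, it passed the count filter through the *Col10a1*-low sums alone, and DESeq2 did not call it (adjusted p = 0.0655). Among listed members that did not pass, *Bgn* (biglycan) had a log2 fold change of -0.80 ± 0.25 (adjusted p = 0.0668), *Cilp2* of -0.44 ± 0.21 (0.282), *Cytl1* of 0.33 ± 0.17 (0.345) and *Dcn* (decorin) of 0.22 ± 0.14 (0.431).

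**Figure D2:**
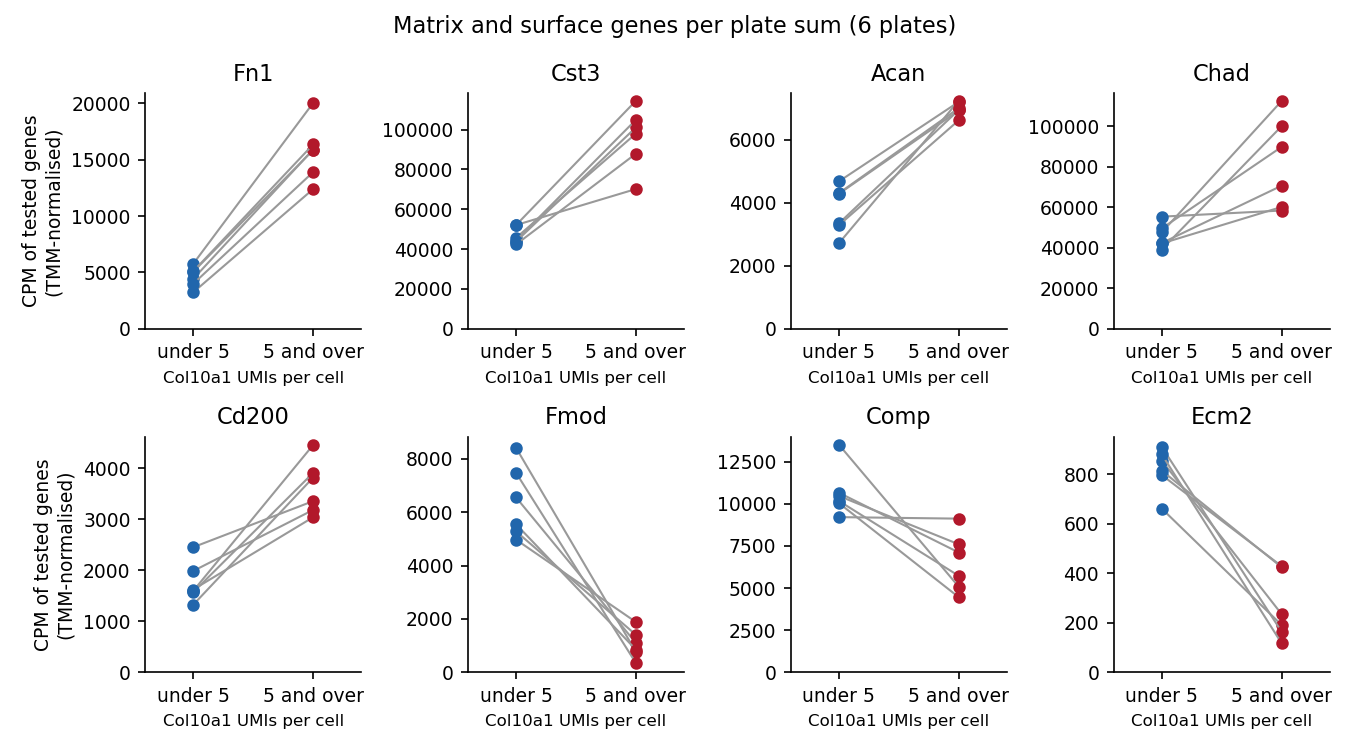
Each panel gives CPM of the tested genes, TMM-normalised, in *Col10a1*-low (under 5 UMIs, blue) and *Col10a1*-high (5 and over, red) cells, and each line joins the sums of 1 of 6 plates. *Fn1* runs from 3232 to 5759 CPM on the left and from 12398 to 20041 CPM on the right, whereas *Fmod* falls on every plate.

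The 7 listed cartilage collagens were all tested and none passed the threshold, where 7.95% of all tested genes did. Their log2 fold changes lay between -0.40 (*Col11a1*) and 0.48 (*Col9a3*), with a median of 0.20, and 43 of the 239 genes had an unadjusted p under 0.05. *Col2a1*, the main fibrillar collagen of cartilage, ranged from 10681 to 35290 CPM (median 18186) in *Col10a1*-high cells and from 18777 to 36031 CPM (median 22255) in *Col10a1*-low cells, which overlap (log2 fold change -0.38, 95% interval -0.67 to -0.08, edgeR adjusted p = 0.169). Of the 16 other collagens listed, 3 were tested and 0 passed, with a median of -0.61. *Col1a2*, of type I collagen, had a log2 fold change of -0.79 ± 0.26 and was lower on all 6 plates (adjusted p = 0.0759). The other type I chain, *Col1a1*, did not pass the count filter and stood the other way, with 88 UMIs in 27 of the 89 *Col10a1*-high cells (744 CPM of all genes but the rule genes) and 94 UMIs in 67 of the 248 *Col10a1*-low cells (345 CPM).

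The list of genes of hypertrophy and mineralisation had few members at a level that could be tested. Over all tested genes 5.44% were higher, and the tested members are too few to set beside that share. Of its 16 genes 3 passed the count filter, and 1 of these was higher, *Cdkn1a*, which encodes the cell cycle inhibitor p21. *Cdkn1a* ranged from 2032 to 7281 CPM (median 4721) against 1476 to 3635 CPM (median 2392), higher on 5 of 6 plates and lower on plate 6 (log2 fold change 0.92 ± 0.22, edgeR adjusted p = 0.0176). The call was lost without plate 5, 7 or 9 (adjusted p = 0.0685, 0.116 and 0.0624) and with depth-matched cells (0.193). *Enpp1*, which makes the mineralisation inhibitor pyrophosphate, had a log2 fold change of 0.20 ± 0.23 (adjusted p = 0.733), and *Fgfr1* of 0.07 ± 0.31 (0.993). The untested members had fewer UMIs than these and went both ways. *Alpl*, the alkaline phosphatase of mineralising cells, had 11 UMIs in all 89 *Col10a1*-high cells (93.1 CPM of all genes but the rule genes) and 51 in the 248 *Col10a1*-low cells (187 CPM). *Bmp2* had 56 UMIs (474 CPM) and 106 UMIs (389 CPM). *Ank* had 45 UMIs (381 CPM) and 163 UMIs (598 CPM). Also lower were *Gja1* (203 against 506 CPM) and *Cdkn1c* (161 against 271), while *Dlx5* (279 against 169) and *Foxa3* (152 against 91.7) stood higher. *Dlx3* and *Dmp1* were at 0 in *Col10a1*-high cells, where a count of 0 allows up to 3 UMIs over the class.

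Of 9 listed genes of the articular surface 6 were tested, and 1 was higher (5.44% of all tested genes were), the *Fn1* described above. Their median log2 fold change was -0.28. *Gas1*, a membrane protein that binds hedgehog ligands, was lower on all 6 plates without passing the threshold (log2 fold change -0.65 ± 0.21, edgeR adjusted p = 0.0686). *Angptl7*, a secreted angiopoietin-like protein, had a log2 fold change of -1.10 ± 0.39 (adjusted p = 0.109), and was at 0 on plate 1 but at 1718 CPM on plate 8 in *Col10a1*-high cells. *Foxo1*, a transcription factor of the superficial zone, had a log2 fold change of 0.35 ± 0.34 (adjusted p = 0.666). *Fgfr3*, the receptor tyrosine kinase of cartilage, did not pass the count filter, with 34 UMIs in *Col10a1*-high and 69 in *Col10a1*-low cells.

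Among the genes outside the lists, *Cst3*, *Cd200* and *Cd14* transcripts rose. *Cst3*, cystatin C, a secreted inhibitor of cathepsins, ranged from 70190 to 114517 CPM (median 99593) against 42336 to 52086 CPM (median 44975), without overlap (2.04-fold, log2 fold change 1.03 ± 0.15, edgeR adjusted p = 0.00034). *Cd200*, a surface glycoprotein that restrains myeloid cells and is used as a marker of skeletal stem cells, ranged from 3038 to 4454 CPM (median 3584) against 1322 to 2450 CPM (median 1607). The classes of *Cd200* did not overlap either (2.06-fold, log2 fold change 1.04 ± 0.20, adjusted p = 0.00336), and the call was lost with no filter on low counts (adjusted p = 0.47). *Cd14*, a co-receptor for bacterial lipopolysaccharide, was named after its values were seen. It ranged from 848 to 4111 CPM against 356 to 1359 CPM, and was higher on 5 of 6 plates (log2 fold change 1.48 ± 0.33, adjusted p = 0.0112), and its call was lost in cells under 0.5% *Cnmd* (0.172).

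The other genes that rose act inside the cell. *Ddit4l*, an inhibitor of mTOR signalling, had the largest log2 fold change, at 2.22 ± 0.36 (4.67-fold, edgeR adjusted p = 0.00107), from 919 to 2657 CPM (median 1157) against 37 to 490 CPM (median 351). It rests on 93 UMIs in *Col10a1*-high cells and 30 in *Col10a1*-low cells, and 0 of the 6 *Col10a1*-low sums reached the minimum of the count filter, which it passed through the class where it was higher. It was also called with no filter. *Adk* (adenosine kinase) rose by 1.12 ± 0.27, *Anxa8* (a phospholipid-binding annexin) by 0.91 ± 0.21, *Btg2* (an antiproliferative early response gene) by 0.84 ± 0.21 and *Atf7ip* (a chromatin cofactor of gene silencing) by 0.63 ± 0.18 on the log2 scale, each on all 6 plates (adjusted p from 0.0146 to 0.0405). *Cox4i2*, a cytochrome oxidase subunit named after its values were seen, rose by 0.92 ± 0.26 (adjusted p = 0.042) on 5 of 6 plates. Leaving out single plates ended the call of *Adk* (plate 1, adjusted p = 0.0525), *Anxa8* (plate 6, 0.0581), *Btg2* (plates 5, 6 and 9, 0.0663 to 0.0786), *Atf7ip* (plates 1, 6 and 7, 0.13 to 0.215) and *Cox4i2* (plates 1, 5, 6, 7 and 9, 0.0768 to 0.166). *Atf7ip* exons overlap *Gm44140*, and *Cdkn1a* exons overlap *AC167363.2*, both on the other strand.

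Among the genes that fell, *Cnn3*, an actin-binding calponin, ranged from 156 to 1526 CPM against 840 to 1652 CPM and was lower on all 6 plates (log2 fold change -1.48 ± 0.34, edgeR adjusted p = 0.012). It rests on 27 UMIs in *Col10a1*-high cells and 147 in *Col10a1*-low cells. Only 1 of the 6 *Col10a1*-high sums reached the minimum of the count filter, which *Cnn3* passed through the class where it was higher. *Apoe*, a lipid carrier, ranged from 771 to 2670 CPM against 1654 to 3844 CPM (-0.75 ± 0.21, adjusted p = 0.042). *Gm13889*, named after its values were seen, was lower on 5 of 6 plates (-1.36 ± 0.40, adjusted p = 0.0494). Leaving out single plates ended the call of *Cnn3* (plate 5, adjusted p = 0.0586), *Apoe* (plates 5, 6, 7 and 9, 0.0965 to 0.166) and *Gm13889* (plates 1, 5, 6 and 7, 0.122 to 0.21). *Gm13889* exons overlap *Gm27027* on the same strand, and those of *Cnn3* overlap *Gm42928* on the other.

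Of 11 tested immediate early genes 1 was higher, *Btg2*, with a median log2 fold change of 0.09, a share near the 7.95% called over all genes. Lists with few tested genes leave little to read, and none passed among 4 tested genes of glycolysis and hypoxia (median 0.11), 4 of endoplasmic reticulum folding (median 0.01), 10 of ATP synthase and cytochrome oxidase (median -0.18), or 1 each of chondroitin sulfate synthesis, the FGF pathway, osteoblasts and *Cnmd*-rich chondrocytes. No gene of the BMP pathway list (22 genes, 200 UMIs in *Col10a1*-high cells) or the S and G2/M phase list (28 genes, 36 UMIs) reached the count filter.

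Markers of blood, marrow stromal and endothelial cells were scarce in the *Col10a1*-high cells, and the part of other cells in the results was not tested. In sums of at least 5 cells per plate, the 15 blood and immune markers together ranged from 0 to 667 CPM of all genes but the rule genes in *Col10a1*-high cells and from 0 to 4065 CPM in *Col10a1*-low cells. *Cd68*, *Csf1r*, *Ctss*, *C1qa*, *C1qb*, *C1qc*, *Coro1a* and *Alas2* were at 0 in *Col10a1*-high cells. The 5 marrow stromal markers ranged from 0 to 142 CPM against 0 to 88.8 CPM, with *Adipoq*, *Esm1* and *Gdpd2* at 0. The 6 endothelial markers held 1 UMI in all 89 cells and reached 92.9 CPM in *Col10a1*-low sums, with *Cdh5*, *Emcn*, *Cldn5*, *Egfl7* and *Cd34* at 0. The 5 osteoclast markers ranged from 83.8 to 709 CPM against 62.9 to 428 CPM. Of these *Ctsk*, a cathepsin that is not particular to osteoclasts, was the one found in *Col10a1*-high cells, with 30 UMIs in 24 of the 89 cells, and *Acp5*, *Atp6v0d2*, *Dcstamp* and *Calcr* were at 0. The 6 osteoblast markers were less scarce, at 368 to 3970 CPM against 995 to 4759 CPM, and went both ways. *Bglap*, osteocalcin of osteoblasts, held 44 UMIs in 28 *Col10a1*-high cells and 95 UMIs in 46 *Col10a1*-low cells. *Col1a1* stood higher in *Col10a1*-high cells (744 against 345 CPM). *Col1a2* (863 against 1445 CPM), *Bglap2* (76.1 against 84.4) and *Bglap3* (16.9 against 44.0) stood lower, and *Dmp1* was at 0.

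Because *Col10a1*-high cells were deeper, each cell was also thinned to 710 UMIs outside the rule genes, which left 88 *Col10a1*-high and 215 *Col10a1*-low cells on all plates. *Fn1* was then detected in 89.8% and 74.9% of cells (96.6% and 82.3% before thinning). *Fmod* was detected in 35.2% and 74.4% (48.3% and 81.9% before), *Acan* in 93.2% and 66.0% (98.9% and 80.6% before), and *Cd200* in 64.8% and 40.9% (78.7% and 47.6% before), with *Cd200* at 7.41% of thinned *Cnmd*-rich cells. The direction of each was thus the same at equal depth. Refitted on thinned cells, the comparison called 19 genes, 12 higher and 7 lower, of 134 tested. Refitted with *Col10a1*-low cells matched to *Col10a1*-high cells by depth within plates, it called 13, 9 higher and 4 lower, of 190 tested. *Btg2*, *Atf7ip*, *Cdkn1a*, *Cox4i2* and *Apoe* lost their call there. The matching was incomplete. Median UMIs outside the rule genes were still 1426 in *Col10a1*-high against 1193 in matched cells on plate 5, and 1233 against 971 on plate 6.

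**Figure D3:**
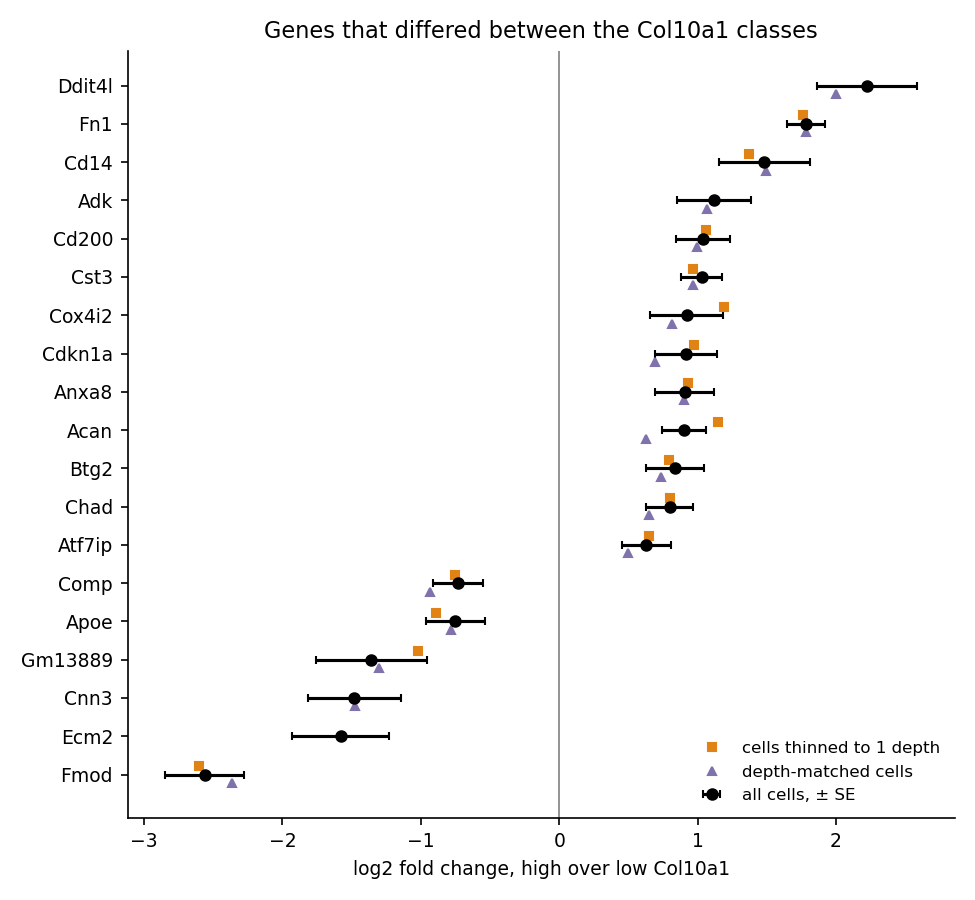
Log2 fold changes (*Col10a1*-high over *Col10a1*-low) of the 19 called genes, with black points and bars for all cells ± SE, squares for cells thinned to 1 depth and triangles for depth-matched cells. Every square and triangle lies on the same side of 0 as its black point, from -2.56 for *Fmod* to 2.22 for *Ddit4l*, and genes without a square or triangle were not tested in that setting.

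The levels were also described along the *Col10a1* count, as mean CPM of all genes but the rule genes over plates with at least 3 cells in a bin, without a test. *Fn1* stood at 2666 ± 684 (SD, 8 plates) in cells with no *Col10a1* UMI, 2841 ± 865 with 1 to 4 (8 plates), 9160 ± 3921 with 5 to 9 (5 plates) and 10390 ± 2506 with 10 and over (7 plates). *Fmod* stood at 5276 ± 1774, 4424 ± 1947, 1064 ± 823 and 521 ± 240 in the same bins. Both genes were close in the bins below 5 UMIs and far from these in the bins above, although the 20 cells with 3 or 4 UMIs already stood at 1070 CPM of *Fmod*. *Acan* climbed in smaller steps, from 1955 ± 855 to 2521 ± 839, 3297 ± 432 and 4459 ± 748, and *Cd200* from 895 ± 349 to 1126 ± 343, 1468 ± 651 and 2362 ± 377. Right at the threshold, between cells with 3 or 4 and cells with 5 or 6 UMIs, neither *Acan* nor *Cd200* rose. Median depth also climbed over the bins, from 1072 to 1188, 1279 and 1480 UMIs per cell, and its part in these levels was not tested.

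**Figure D4:**
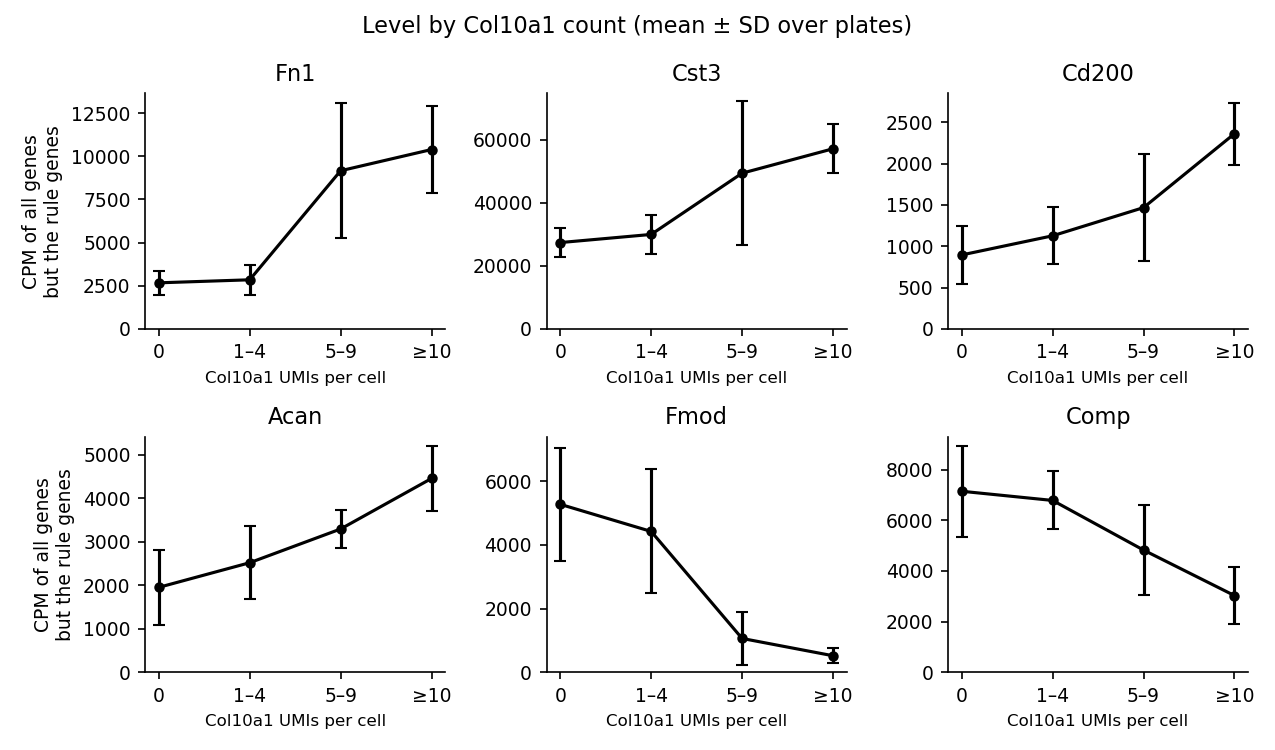
Mean CPM (all genes but the rule genes) ± SD over plates of 6 genes in articular-like cells with 0, 1 to 4, 5 to 9 and 10 or more *Col10a1* UMIs. *Fn1* steps from 2841 to 9160 and *Fmod* from 4424 to 1064 between the second and the third bin, while *Acan* and *Cd200* climb from bin to bin.

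The plates that could not be fitted had 3 and 4 *Col10a1*-high cells, and their values are given as they stand. On plate 4 *Fn1* was at 14112 CPM of all genes but the rule genes (66 UMIs) against 2043, as on the fitted plates, but on plate 2 it was at 2110 (9 UMIs) against 1998. *Fmod* was lower on both, at 469 against 6691 on plate 2 and 855 against 5864 on plate 4. *Acan* was higher on both, at 4455 against 1417 and 4918 against 1617. *Cd14* was also higher on both, at 3517 against 1417 and 5773 against 284. Some called genes went against the fit. *Adk* was lower on both, at 469 against 604 and 428 against 586. On plate 2 *Ddit4l* and *Anxa8* were at 0 against 92.9 and 465, *Atf7ip* at 2110 against 2230 and *Ecm2* at 469 against 441. On plate 4 *Chad* was at 22450 against 23242 and *Gm13889* at 3421 against 2310. The remaining called genes kept the direction of the fit on both plates.

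*Col10a1*-high cells were then set beside *Cnmd*-rich cells (102 cells on the same 6 plates) in a separate fit whose CPM are not on the scale above and which shares the *Col10a1*-high sums. Of 299 genes 170 differed (56.9%), 89 higher in *Col10a1*-high cells (29.8%) and 81 lower (27.1%), with a median log2 fold change of -0.06, and 78 had levels that did not overlap (26.1%). For 52 of the 170, at most 1 of the 6 sums of the lower group reached the minimum of the count filter, so these passed it through the group where they were high. With no filter on low counts, the scaling moved that median by -0.66, against -0.22 in the first comparison.

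The cartilage collagens were lower in *Col10a1*-high cells than in *Cnmd*-rich cells, 7 of 7, where 27.1% of all 299 tested genes were lower. Their log2 fold changes ran from -2.32 (*Col9a1*) to -1.34 (*Col27a1*). *Col2a1* was at 22399 ± 10218 CPM (SD, n = 6) against 103106 ± 11244, a 4.88-fold difference (edgeR adjusted p = 3.26e-06). *Acan* did not pass the threshold, at 8130 ± 245 against 9783 ± 1097 CPM (log2 fold change -0.26, 95% interval -0.53 to 0.01, adjusted p = 0.106), nor did *Comp* (0.24, interval -0.12 to 0.60, adjusted p = 0.266). *Acan* passed with DESeq2 size factors (-0.33, adjusted p = 0.0463) and with no filter (-0.93, adjusted p = 4.66e-05). *Fmod* was 4.63-fold lower (-2.21 ± 0.29, adjusted p = 1.44e-05) and *Fn1* 2.78-fold higher (1.48 ± 0.20, adjusted p = 1.48e-05). The side by side values for *Fmod* are -2.56 over *Col10a1*-low and -2.21 over *Cnmd*-rich cells.

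Among the 10 largest increases over *Cnmd*-rich cells were *Cd14* (log2 fold change 5.83 ± 0.35), *Gas1* (5.17 ± 0.26), the small proteoglycan *Dcn* (4.44 ± 0.19), *Cilp2* (4.27 ± 0.33), the lysophosphatidic acid producing enzyme *Enpp2* (4.04 ± 0.33), *Ddit4l* (3.99 ± 0.41), *Cd200* (3.80 ± 0.25), the cytokine-like *Cytl1* (3.70 ± 0.33), *Atf7ip* (3.32 ± 0.19) and *Cst3* (3.13 ± 0.24). Of these, *Cd14*, *Gas1*, *Cilp2*, *Enpp2*, *Ddit4l* and *Cd200* had 10 to 61 UMIs in the *Cnmd*-rich cells and passed the count filter through the *Col10a1*-high sums alone. The 10 largest decreases included *Col9a1*, *Col2a1* and *Fmod*, and 7 genes with so few UMIs in *Col10a1*-high cells that counts are given in place of folds. *Col12a1*, a fibril-associated collagen, had 6 UMIs against 291, *Epyc*, the small proteoglycan epiphycan, 7 against 341, and *C1qtnf3* 11 against 449. *Clec11a* had 13 against 255 and the carbonic anhydrase *Car12* 14 against 252. *Gm37788* had 3 against 307 and the processed pseudogene *Gm11225* 23 against 507, and reads of such loci may be shared with similar copies. Of the 7 decreases given as counts, *Car12* had 1 of 6 *Col10a1*-high sums at the minimum of the count filter and the others had 0. These 7 thus passed it through the *Cnmd*-rich sums. All 20 had an edgeR adjusted p of at most 7.41e-05, which is no independent support for these 7 or the 6 increases above. Many of these 20 differences were shared by *Col10a1*-low cells and are not particular to *Col10a1*-high cells. In CPM of all genes but the rule genes, *Gas1* stood at 2699 in *Col10a1*-high, 4050 in *Col10a1*-low and 104 in *Cnmd*-rich cells. In the same order *Cilp2* stood at 1074, 1753 and 101, *Dcn* at 24854, 23719 and 1873, and *Col9a1* at 744, 767 and 5674. *Cytl1* stood at 182663, 148024 and 21590.5, *Col2a1* at 11098.7, 15920.5 and 78318.3, and *Car12* at 118, 114 and 958. *Epyc* stood at 59.2, 36.7 and 1492, *C1qtnf3* at 102, 158 and 2486, and *Col12a1* at 59.2, 191 and 1065. Of the 20, *Cd14*, *Ddit4l*, *Cd200*, *Atf7ip*, *Cst3* and *Fmod* were also called against *Col10a1*-low cells. *Cnmd*-rich cells were deeper (median 2316.5 UMIs), and with all cells thinned to 1081 UMIs 82 genes were called, 45 higher and 37 lower.

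**Figure D5:**
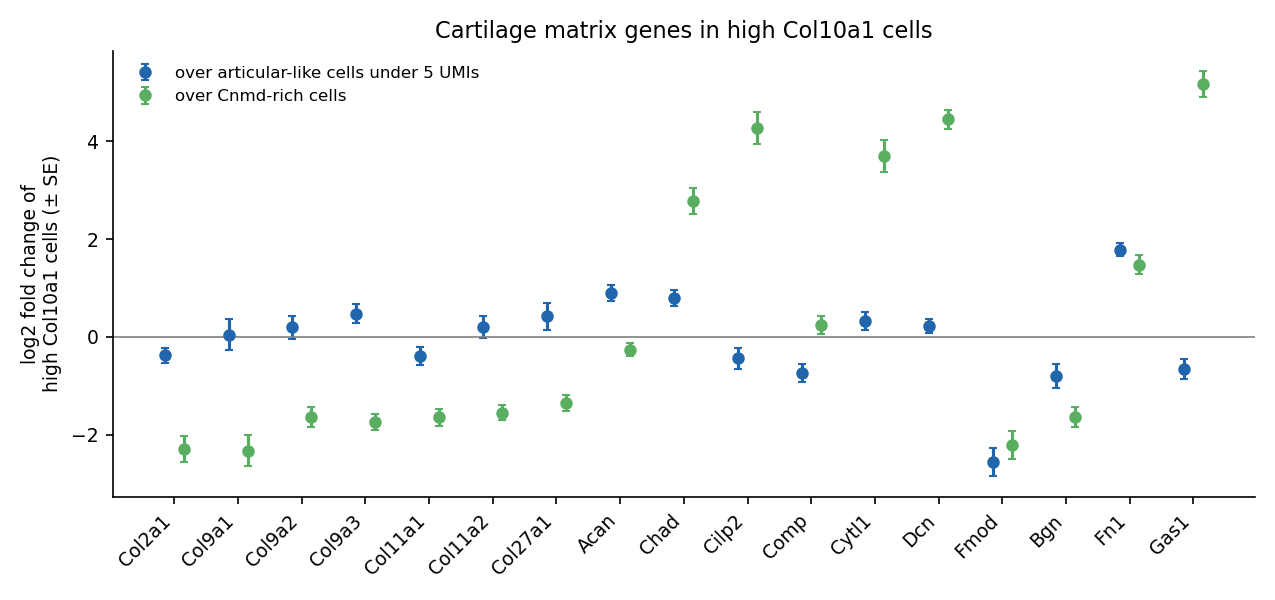
Log2 fold change ± SE of *Col10a1*-high cells over *Col10a1*-low articular-like cells (blue) and over *Cnmd*-rich cells (green) for 17 matrix and surface genes. The 7 collagens at the left lie near 0 in blue and between -2.32 and -1.34 in green, whereas *Fmod* is below -2 and *Fn1* above 1 in both. The comparisons share the *Col10a1*-high sums.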

How the data were processed

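The authors deposited a table of UMI counts per gene and well for the *Grem1* plates and another for the *Lepr* plates. Their processing notes name UMI-tools, STAR, featureCounts, SAMtools and Seurat with the mm10 genome. The paper's methods give R and Seurat versions for the analysis after counting, and a release of the mm10 reference for Cell Ranger. Versions of the other named tools, and whether counting used strand, are not given in the sources used here, so genes with exons that overlap on opposite strands cannot be told apart. From the *Grem1* plates, 29183 complete gene rows were used, ending alphabetically at *Gm5763* (the *Lepr* table was restricted to the same genes for depth and the gene minimum), and 1 incomplete row was left out. GENCODE positions (GRCm38) matched 97.2% of symbols.

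Wells with under 350 detected genes were left out. UMIs were summed per plate and class without the 5 genes of the rule, in sums of at least 5 cells. Genes were kept by filterByExpr and tested with edgeR 4.0.16 (R 4.3.3; TMM, quasi-likelihood, plate as block, threshold 0.05 after Benjamini-Hochberg adjustment). Standard errors were taken as the log2 fold change over the square root of F and are approximate. DESeq2 1.42.0, other filters, scalings, thresholds and depths were alternatives. The fits were tested on simulated data. Exact binomial intervals came from SciPy 1.17.1.

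The plate is the replicate. Both sums of a plate come from the same library, and their deviations correlated by 0.180 on average (0.073 to 0.430) against -0.027 between plates (0.164 and -0.028 for the *Cnmd*-rich comparison). The methods say that cells of a few individual samples were grouped and that wells were filled at random. The mice behind each plate are not given, so plates may share mice. With the plate as a block, p-values measure how far the difference between the groups of cells varied over plates. That variation may be technical. Wells were sorted as single cells, and no doublet caller was run. Cells are not replicates and gave no p-value.

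Named genes were those with a mean of at least 50 CPM, past the threshold and in 1 direction on every plate (up to 10 per direction by log2 fold change), called members of the listed gene groups, and *Acan*, *Foxo1*, *Fgfr3* and *Cd200*, which the paper names. Members, lists and tests were chosen with earlier results of these data known. A comparison of *Col10a1* classes within *Cnmd*-rich cells, and its interaction with the class, could not be fitted, since 2 *Cnmd*-rich cells reached 5 UMIs.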

Additional observations from a re-analysis of the deposited data

Results flagged for a closer look

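In 40 groups of 6 plate sums of the named genes, 4 held a sum far from the others by Dixon's test, and the share of the class over 8 plates held none, where chance gives about 1 in 20 groups. *Ddit4l* in *Col10a1*-high cells stood at 2657 CPM on plate 6, with the next sum at 1473 CPM. *Cnn3* in *Col10a1*-high cells stood at 1526 CPM on plate 1, with the next at 566 CPM. *Comp* in *Col10a1*-low cells stood at 13512 CPM on plate 8, with the next at 10660 CPM. *Gm13889* in *Col10a1*-low cells stood at 7601 CPM on plate 1, with the next at 3308 CPM.

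*Col10a1* was also found in the *Lepr*-lineage wells, which entered no comparison. They held 26 *Col10a1* UMIs in 162 wells, above the 3 that a count of 0 allows. All lay on plate 1, in 5 wells, and 1 well held 22 of them.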

How the results depend on the processing

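The *Col10a1*-high and *Col10a1*-low comparison called 19 genes. Without the plate as a block the pairing of sums was lost and 12 were called. Leaving out each plate gave 12 to 23, with 12 (10 higher, 2 lower) without plate 5. Without the 20 most abundant genes 8 were called, and with cells under 0.5% *Cnmd*, chosen after seeing the data, 5 were called (50 *Col10a1*-high and 70 *Col10a1*-low cells, 139 genes tested). The other alternatives, DESeq2 (13) among them, gave 13 to 25. Of the 19 genes, *Fn1*, *Cst3* and *Fmod* passed in the 22 of 23 alternatives that tested each of them, and none of the 19 changed sign. *Ddit4l* passed in the 18 that tested it. In the main fit it had 0 of 6 *Col10a1*-low sums at the minimum of the count filter. Its passing thus rests in part on that filter. *Foxo1*, not called, moved to -0.0028 on the log2 scale with *Col10a1* at 0.4% of UMIs as the threshold.

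Over *Cnmd*-rich cells 170 genes were called. No filter gave 372 (102 higher, 270 lower), with *Btg2* at -0.14 and *Comp* at -0.43 on the log2 scale, both changed in sign. Thinning gave 82 of 156 tested, and leaving out each plate 143 to 167. The share of the class was 39.8% with at least 2 and 16.3% with at least 10 *Col10a1* UMIs. No alternative was run for the comparison within *Cnmd*-rich cells or its interaction. Depth limits the test to the 239 genes past the count filter, of 8938 with a UMI.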

Other observations

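Below the count filter, 11 further genes passed the threshold when all 8938 genes with a UMI were tested with edgeR. They were chosen after seeing the data. Those with the same direction on all 6 plates and higher in *Col10a1*-high cells were *Alox12*, a lipoxygenase (83 against 34 UMIs, log2 fold change 1.95 ± 0.39, edgeR adjusted p = 0.000626), *Fxyd3*, a regulator of the sodium pump (111 against 46 UMIs, 1.76 ± 0.35, 0.000742), and *F13a1*, the transglutaminase chain of coagulation factor XIII (53 against 22 UMIs, 1.84 ± 0.45, 0.0259). *Col5a2*, a collagen that joins type I fibrils, was lower on all 6 plates (10 against 89 UMIs, -2.48 ± 0.49, 0.000626), as were *Cercam* (4 against 42 UMIs, -2.89 ± 0.72, 0.0287) and *Gm42856*. *Ctcfl* had 19 against 287 UMIs, but its *Col10a1*-low level was 8975 CPM of all genes but the rule genes on plate 7 and at most 351 CPM on the other fitted plates.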
